A study of Mus musculus with 8 samples.

Results

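The immunoglobulin heavy chain (Igh) locus holds the segments from which a B cell assembles its antibody heavy chain, and here 5-hydroxymethylcytosine (5-hmC) was described across it in pro-B cells. Its members were chosen by annotation alone, as the genes on chromosome 12 whose symbol starts with Igh and whose type is an immunoglobulin gene or pseudogene. This gave 217 of the 55450 genes of the GENCODE M21 annotation of GRCm38, with 8 constant genes, 4 J segments, 20 D segments (3 of them pseudogenes), 115 V genes and 70 V pseudogenes. The V segments were divided by position into 64 proximal V segments, which lie nearer to the D segments, and 121 distal V segments, which begin at the lowest member of families Ighv1 and Ighv8. Together they span chr12:113254830-116010093, a stretch of 2755 kb, and 215 of them are on the minus strand, so that the constant genes stand at the low-coordinate end and the distal V segments at the high-coordinate end. The 2 on the plus strand, typed IG_LV, are second records of Ighv5-8 and Ighv1-13, which overlap a pseudogene of the same symbol and are counted among the 115 V genes.

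The 4 libraries came from hMeDIP-seq, in which DNA sheared to 350 bp fragments is pulled down with an antibody against 5-hmC and sequenced. There were 2 libraries of HDAC7-deficient and 2 of wild-type pro-B cells, sorted as B220+CD43+IgM- cells from the bone marrow of C57BL/6 mice aged 4 to 6 weeks. HDAC7 is a class IIa histone deacetylase, and per the study's methods the deficient mice carry 1 floxed and 1 null allele (Hdac7 fl/-) with Cre expressed from the B-lineage gene Cd79a (mb1-Cre), while the wild-type libraries came from Hdac7+/- littermates, so the cells of both groups had 1 null allele from the start. The deletion and the identity of the sorted cells cannot be checked from peak positions. The deposited lists give peak positions with no heights or read counts, and with the depth unknown only the presence, number and width of peaks can be compared. Nothing in the labels says that replicates were separate mice, and the p-values then measure the spread between libraries, which may be technical.

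In a developing B cell a D segment is first joined to a J segment and a V segment is then joined to the DJ unit, with the DNA between the joined segments cut out. The RAG1 and RAG2 recombinase cuts at recombination signals, which are a heptamer and a nonamer set apart by a spacer, beside each V, D and J segment. The rearranged gene is read from the V promoter under the intronic enhancer between the J segments and Ighm, and mature B cells later replace Ighm with another constant gene by recombination between switch regions, repeats that lie on the 5′ side of the constant genes other than Ighd. 5-hmC is made by TET enzymes from methylated cytosine, mainly at CpG.

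The stretches that lay under a peak in all 4 libraries show what the peaks of the locus look like in sequence. For some of the intervals and genes the results turn on, one such stretch of 80 to 300 bases is given for each, chosen as that with the most CpG, on the coding (minus) strand of GRCm38, 5′ to 3′, with each CpG in capitals. The stretch on the 5′ side of Ighg1 held 3 CpG and the others held 1 each.
5′ side of Igha, chr12:113261705-113261910: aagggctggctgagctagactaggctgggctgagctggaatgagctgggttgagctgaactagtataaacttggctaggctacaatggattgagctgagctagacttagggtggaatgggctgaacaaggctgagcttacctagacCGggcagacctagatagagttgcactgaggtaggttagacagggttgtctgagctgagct
5′ side of Ighg1, chr12:113340176-113340395: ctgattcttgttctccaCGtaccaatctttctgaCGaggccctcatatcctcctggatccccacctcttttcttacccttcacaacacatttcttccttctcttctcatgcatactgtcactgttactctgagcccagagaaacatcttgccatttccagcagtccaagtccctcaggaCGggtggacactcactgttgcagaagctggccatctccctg
between Ighm and Ighj4, chr12:113423652-113423767: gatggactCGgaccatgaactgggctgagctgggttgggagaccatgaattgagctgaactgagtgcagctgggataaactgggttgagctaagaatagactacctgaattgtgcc
between Ighd1-1 and Ighd3-1, chr12:113513488-113513611: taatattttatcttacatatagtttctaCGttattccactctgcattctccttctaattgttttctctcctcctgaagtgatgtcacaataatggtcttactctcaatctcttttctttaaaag
between Ighd5-1 and Ighv5-1, chr12:113557116-113557243: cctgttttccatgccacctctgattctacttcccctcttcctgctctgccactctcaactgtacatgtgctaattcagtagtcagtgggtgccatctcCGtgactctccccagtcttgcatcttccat
between Tmem121 and Igha, chr12:113248624-113248738: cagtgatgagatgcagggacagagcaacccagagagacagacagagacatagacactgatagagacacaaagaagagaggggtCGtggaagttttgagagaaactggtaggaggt

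The stretch on the 5′ side of Igha carried the letters GAGCT, which recur in switch repeats, 9 times on the printed strand. Among windows of the same length on chromosome 12, 31.6% held GAGCT at least once on either strand and 0.00511% held it that often on 1 strand. The stretch between Ighm and Ighj4 carried it 3 times, against 0.186% of windows of its length, and the stretch on the 5′ side of Ighg1 did not carry it. CpG were sparse under these shared peaks. The 394 stretches of the locus that lay under a peak in every library covered 40.3 kb with 4.59 CpG per kb, against 5.07 CpG per kb over the whole locus. On the rest of chromosome 12 the corresponding values were 7.10 and 8.26 CpG per kb. Of the stretches at least 100 bp wide, 93 of 174 in the locus (53.4%) and 40.0% on the rest of the chromosome held no CpG at all. Where in a 350 bp fragment the modified base lay is not given by a peak.

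The J and D segments are printed for the opposite reason, since most of them lay in a stretch with few peaks. Ighd1-1, the last one printed, stands at the end of that stretch and itself lay under a peak in 3 of the 4 libraries. Each runs 5′ to 3′ on the minus strand of GRCm38, with capitals at the places taken for the heptamer and nonamer of its recombination signals. These are the best match within 3 bp of the segment's end to CACAGTG and ACAAAAACC (or their reverse complements on the 5′ side). The spacer was fixed at 12 bases for D and 23 bases for J segments. The J nonamers so marked differ from the motif at 3 (Ighj4) and 4 (Ighj1) bases and are not the closest match. Read from the next base on, Ighj4 holds GGTTTTTGT, the exact reverse complement of ACAAAAACC, and Ighj1 also matches more closely.
Ighj4, chr12:113428514-113428606: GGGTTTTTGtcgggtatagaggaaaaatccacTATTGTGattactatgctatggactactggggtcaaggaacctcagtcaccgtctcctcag
Ighj1, chr12:113429781-113429872: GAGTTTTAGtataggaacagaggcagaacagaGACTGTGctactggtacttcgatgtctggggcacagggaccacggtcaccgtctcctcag
Ighd4-1, chr12:113430500-113430566: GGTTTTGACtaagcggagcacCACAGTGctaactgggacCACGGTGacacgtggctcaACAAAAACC
Ighd2-3, chr12:113475372-113475444: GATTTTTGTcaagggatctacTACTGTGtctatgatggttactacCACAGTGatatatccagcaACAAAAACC
Ighd1-1, chr12:113482142-113482220: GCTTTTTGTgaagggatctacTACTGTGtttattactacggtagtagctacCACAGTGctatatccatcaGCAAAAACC

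An exact heptamer on at least 1 side was found at 8 of 20 D segments, and at 0 of 4 J segments, whose best matches differed from it at 1 or more bases. On the 3′ side of the V segments an exact CACAGTG lay in the 17-bp window at the end of 82 of 113 V genes (72.6%) and of 26 of 70 V pseudogenes (37.1%), while 0.144% of 17-bp windows on chromosome 12 held it on the same strand and 0.292% on either strand. The 108 V segments with it had a median of 379 bases under peaks within 2 kb (mean of the 4 libraries), and the 75 without it had 385.

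The whole locus had 1383 peaks in wild-type replicate 1, 1441 in wild-type replicate 2, 1513 in HDAC7-deficient replicate 1 and 1390 in HDAC7-deficient replicate 2, between 0.101% and 0.107% of each list. To set libraries side by side, the bases under peaks per kb were divided by the same library's value on the rest of chromosome 12, which ranged from 87.5 to 101.8 bases per kb. The quotient is called the relative density here. The locus as a whole was close to its chromosome, with a relative density of 1.08 ± 0.0270 (SD, n = 4 libraries). Its parts were not alike. The constant region stood at 2.32 ± 0.255 times the chromosome, the D to J part at 0.631 ± 0.129, the proximal V part at 1.13 ± 0.0842 and the distal V part at 0.972 ± 0.0264 (SD, n = 4). In every library the constant region was the densest of the 4 parts and the D to J part the sparsest. Read at positions where a word of 32 bases occurs once in the genome, which make up 82.1% of the constant region and 61.3% of the locus, the constant region had 229, 235, 247 and 218 bases under peaks per kb (wild-type first) and the locus 112, 122, 112 and 125.

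**Figure D1:**
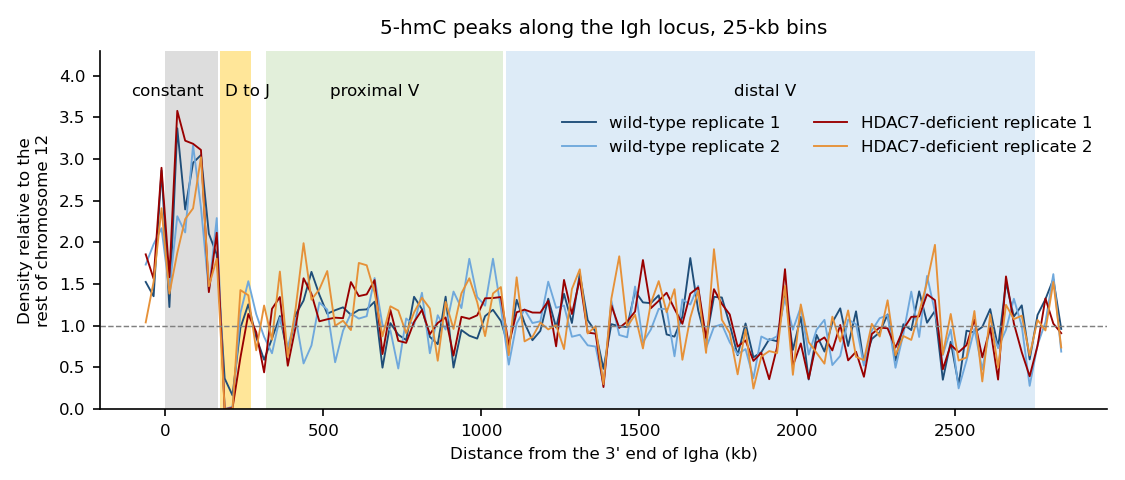
Density of bases under 5-hmC peaks in 25-kb bins along the Igh locus, by distance from the 3′ end of Igha in kb, divided by the library's own density on the rest of chromosome 12 (dashed line at 1). Each line is 1 library and the shading marks the 4 parts. All 4 lines are above 1 over the constant genes and drop to between 0 and 0.368 in the 2 bins from 175 to 225 kb, which hold most D segments, and over the V segments they vary around 1.

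The constant genes encode the part of the heavy chain that sets its class. Ighm, the first constant gene used in a B cell, had 2197 and 1513 bases under peaks within 2 kb in wild-type cells, against 1604 and 1235 in HDAC7-deficient cells (replicates 1 and 2 in each case). Ighd, which is expressed with Ighm in mature B cells, had 1639, 3390, 2668 and 3292 bases in the same order. Every one of the 8 constant genes had peaks in every library. Libraries of the same genotype lay far apart at Ighd, where the lowest and the highest value were both wild-type.

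Among the genes reached by later class switching, Ighg1 had 1232 and 1334 bases in wild-type cells, against 2507 and 2389 in HDAC7-deficient cells. Ighg2b had 1799 and 1492 bases in wild-type cells, against 2356 and 2254 in HDAC7-deficient cells. At these 2 of 8 genes both HDAC7-deficient values lay above both wild-type values, which was so for 12.2% of all autosomal genes, and the reverse held for 16.6%. Igha, the gene for the class secreted at mucosa, went the other way with 1003 and 1397 against 638 and 901 bases. Ighg2c did too, with 2250 and 2959 against 2208 and 1191 bases, although the gap between the nearest libraries was 42 bases. At Ighg3 (2346, 1695, 2846 and 1374 bases) and Ighe (791, 1155, 1261 and 1049 bases) the genotypes overlapped, as they did at Ighm and Ighd. Over the gene without its flanks they also overlapped at Ighg1 (866, 191, 1350 and 459 bases) and Ighg2b (815, 354, 958 and 728 bases). Without flanks, both HDAC7-deficient values stayed lower at Igha (525, 633, 381 and 288 bases) and Ighg2c (1546, 910, 835 and 875 bases). With 2 libraries against 2, no single gene can reach a p below 0.33 in the exact permutation test, so these differences between groups that do not overlap carry no significance.

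Within the constant region the peaks were denser beside the genes than in them. Over up to 10 kb on the 5′ side of each gene, a window chosen after the values had been seen, the lists held 297.9, 314.8, 309.7 and 282.1 bases under peaks per kb in wild-type replicates 1 and 2 and HDAC7-deficient replicates 1 and 2. Over the genes themselves they held 170.4, 155.1, 199.7 and 150.9. The 5′ side was thus higher in each of the 4 libraries, by 132 ± 20.6 bases per kb (SD). The 10 kb on the 5′ side of Ighg1 had the highest relative density, 4.94 ± 0.282 (SD, n = 4), with values from 4.68 to 5.26, while the gene stood at 1.51 ± 1.13. The 5′ sides of Ighg2b, Ighg2c and Ighg3 followed at 4.15 ± 0.607, 3.83 ± 1.55 and 3.70 ± 0.844, and the ranges of these 3 overlap. The range at Ighg1 overlapped those at Ighg2b and Ighg2c and lay above that at Ighg3. These genes are near copies of one another, and the 5′ sides of Ighg2b and Ighg2c are unique in 32-base words at 73.0% and 75.6% of positions, that of Ighg1 at 80.3%. On the 5′ side of Igha, Ighe and Ighm the values were 1.78 ± 0.285, 1.69 ± 0.504 and 2.43 ± 0.964. Ighd, which has no switch region of the usual kind, had 1.52 ± 0.448 over the 2.23 kb up to Ighm and 2.34 ± 0.690 over the gene.

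The widest regions of the locus with a peak in all 4 libraries lay in the same places. A region of 3194 bp, chr12:113362926-113366119, stood 1693 bp from Ighg3, another of 2116 bp, chr12:113330656-113332771, stood 132 bp from Ighg1, and one of 2044 bp, chr12:113308405-113310448, stood 471 bp from Ighg2b. Peaks shared by all libraries covered 38.2 bases per kb of the constant region, against 15.1 in the proximal V, 13.1 in the distal V and 3.49 in the D to J part.

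**Figure D2:**
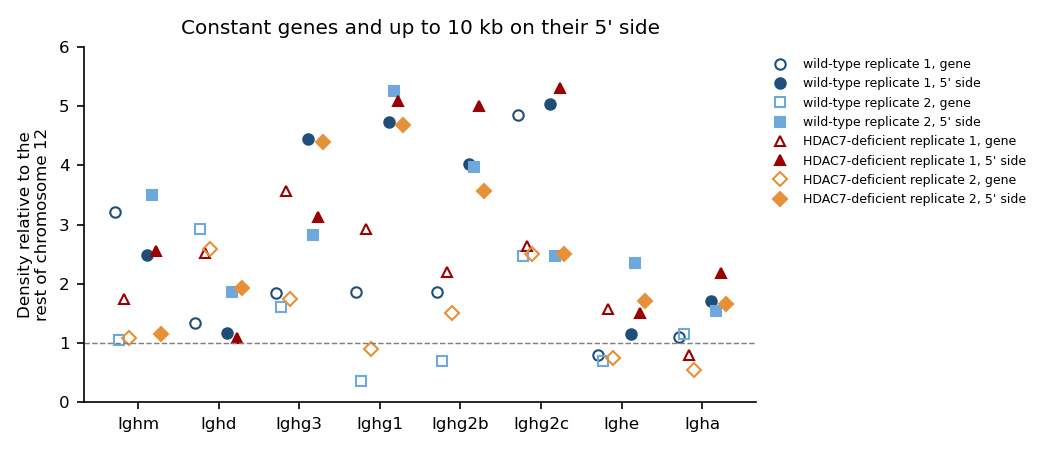
Density of bases under peaks over each constant gene (open symbols) and over up to 10 kb on its 5′ side (filled symbols), relative to the rest of chromosome 12 (dashed line at 1). Genes are ordered from the J segments outward and each symbol shape is 1 library. On the 5′ side of Ighg1 all 4 libraries lie between 4.68 and 5.26, and the genotypes overlap on the 5′ side of every gene.

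The interval between Ighm and Ighj4, 5.78 kb that hold the intronic enhancer and the switch repeats of Ighm, had 9, 11, 7 and 4 peaks (in the order given for the whole locus, wild-type first), covering 1269, 2063, 1291 and 651 bases. Its relative density was 2.43 ± 0.964 (SD, n = 4). The HDAC7-deficient mean was 0.619 ± 0.361 times the wild-type mean (p = 0.667 by exact permutation of the libraries, two-sided), and by bases the genotypes overlapped. Beyond the other end of the locus, the 65.3 kb between Tmem121 and Igha, which include the 3′ regulatory region of the locus, had 45, 62, 49 and 56 peaks and a relative density of 1.79 ± 0.0981, with a ratio between genotypes of 1.00 ± 0.0950 (p = 1, same exact test).

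The J segments and most D segments lay in a stretch nearly free of peaks. Over the 1.32 kb from Ighj4 to Ighj1 there were 0 peaks in any of the 4 libraries. How often a stretch that short holds no peak elsewhere was not counted. Over the 51.7 kb from Ighd4-1, the D segment nearest to the J segments, to Ighd1-1, which hold 18 of the 20 D segments, the wild-type libraries had 12 and 4 peaks and the HDAC7-deficient libraries 2 and 2. They covered 1458, 261, 124 and 115 bases. The same length of autosome held a median of 4758, 5540, 4729 and 5425 bases in the 4 libraries, and 1.63%, 0.773%, 0.643% and 0.749% of 46165 such autosomal tiles held as few or fewer. These bounds were set after the values had been seen, so no test of them is given.

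In 3 of the 4 libraries the longest interval without a peak anywhere in the locus began beside Ighj4 and ran across the J and D segments. It was 50.03 kb long with 20 segments in wild-type replicate 2, 45.6 kb with 18 segments in HDAC7-deficient replicate 1, and 55.3 kb with 21 segments in HDAC7-deficient replicate 2. Between 186 and 244 of the 1283880 to 1364205 gaps between neighbouring autosomal peaks in these libraries were longer. Wild-type replicate 1 was the exception. Its 12 peaks between Ighd4-1 and Ighd1-1 broke up the stretch, and its longest interval, 19.4 kb, lay at Ighv1-60 and Ighv1-61.

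**Figure D3:**
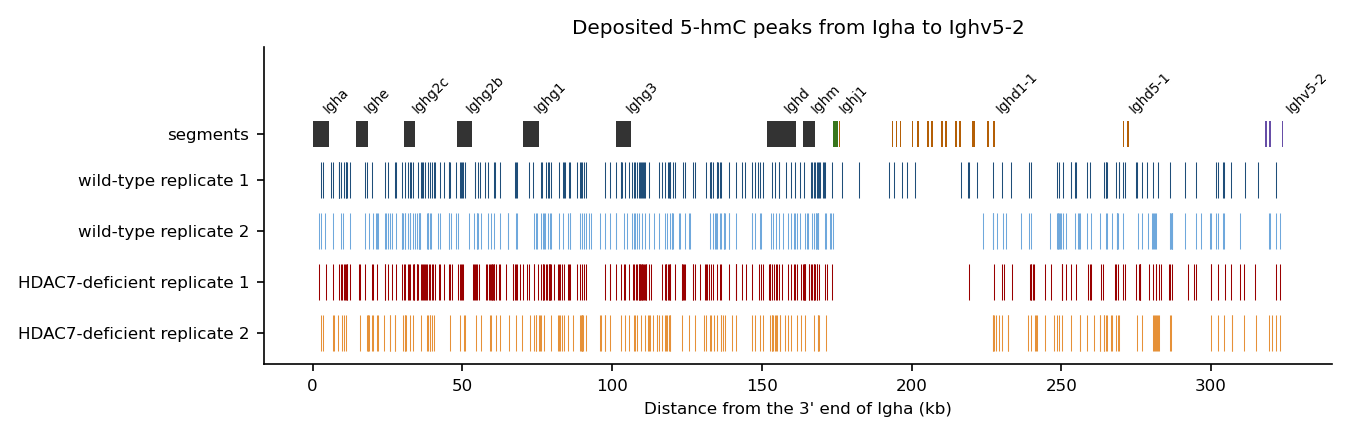
Map of the deposited peaks from Igha to Ighv5-2, by distance from the 3′ end of Igha in kb. Each stroke is the centre of 1 peak in 1 library, and the top row shows constant genes (black), J segments (green), D segments (brown) and V segments (purple). The J segments and the D segments up to Ighd1-1 stand over a sparse stretch. From Ighd4-1 to Ighd1-1 wild-type replicate 1 has 12 peaks and the other libraries have 4, 2 and 2.

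By segment, with 2 kb on each side, 18 and 8 of the 24 D and J segments had a peak in wild-type cells, against 10 and 3 in HDAC7-deficient cells. These counts overlap between the genotypes, and the 24 windows merge into 6 separate stretches. Among autosomal genes up to 1 kb long, 84.8% to 86.7% had a peak within 2 kb. Ighd5-8, Ighd5-4, Ighd2-6, Ighd5-7, Ighd5-3 and Ighd2-5, which are neighbours in the middle of the cluster, had 0 peaks in all 4 libraries. The 4 J segments reached peaks in their 2 kb flanks, with 160, 923, 252 and 0 bases at Ighj4 and 207, 626, 156 and 0 bases at Ighj1. Ighd4-1 had 47, 0, 0 and 0 bases. The last D segments of the array were different. Ighd1-1, the D segment at the end of the sparse stretch, had 475, 316, 219 and 350 bases, Ighd3-1 had 696, 814, 579 and 571, and Ighd5-1, the D segment nearest to the V segments, had 536, 348, 369 and 0. Between Ighd1-1 and Ighd3-1 the relative density was 1.24 ± 0.336 (SD, n = 4), so the sparse stretch ended at Ighd1-1 and not at the end of the D part.

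Repeated sequence was measured beside this pattern. Of the positions from Ighd4-1 to Ighd1-1, 53.5% start a 32-base word found once in the genome, against 61.3% over the whole locus and 82.1% over the constant region. At the positions with such a unique word, the stretch had 47.2, 8.35, 4.48 and 4.16 bases under peaks per kb, against 112, 122, 112 and 125 over the locus. The J segments are unique at 100% of their positions. Between Ighd1-1 and Ighd3-1, 50.2% of positions were unique at a relative density of 1.24, and between Ighj1 and Ighd3-2, 66.2% were unique at 0.0307. From Ighd3-2 to Ighd2-3, which hold 15 D segments, 42.5% were unique at 0.0956. What repeated sequence contributes to the sparse stretch was not tested. A peak needs the DNA to be there, and D-to-J joining removes it, but the lists give no copy number, so less 5-hmC per copy and fewer copies cannot be told apart. The input libraries were not analysed here. Clusters of other antigen receptor loci were looked up after the values had been seen. The J segments of the T-cell receptor alpha locus, unique at 98.3% of positions, had relative densities of 1.06, 1.19, 1.08 and 0.641 in the 4 libraries. The D and J segments of the T-cell receptor beta locus, unique at 95.0%, had 2.06, 2.39, 1.72 and 2.24. The whole Igh D to J part, unique at only 53.6%, had 0.685, 0.691, 0.439 and 0.710, in HDAC7-deficient replicate 2 above the alpha cluster. The stretch from Ighd4-1 to Ighd1-1, whose bounds were also set after the values had been seen, had 0.320, 0.0496, 0.0274 and 0.0229. It leaves out the J segments, Ighd3-1 and Ighd5-1.

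Between the genotypes the D to J part as a whole had a relative density of 0.685 and 0.691 in wild-type cells, against 0.439 and 0.710 in HDAC7-deficient cells, a ratio of 0.835 ± 0.279 (p = 1 in the two-sided exact permutation test). Without HDAC7-deficient replicate 1 the ratio was 1.03. Of its 24 segments, 0 had both HDAC7-deficient values above both wild-type values and 5 had both below (20.8%, against 16.6% of autosomal genes lower and 12.2% higher), namely Ighj3, Ighj2, Ighj1, Ighd6-1 and Ighd3-1. The 3 J segments share 1 set of peaks in overlapping windows and do not count as separate observations. The ratio over the sparse stretch from Ighd4-1 to Ighd1-1 was 0.136, without wild-type replicate 1 it was 0.507 and without wild-type replicate 2 it was 0.0787.

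The 46.1 kb between Ighd5-1 and Ighv5-1, which separate the D segments from the first V segment, held 16, 24, 25 and 18 peaks at a relative density of 0.790 ± 0.0561 (SD, n = 4). The ratio of HDAC7-deficient to wild-type was 0.918 ± 0.0798 (p = 0.667, exact permutation test). Ighv5-1, the first V segment and a pseudogene, had 0, 402, 0 and 670 bases under peaks within 2 kb, so that the libraries numbered 1 had none in either genotype. Ighv5-2 (VH81X; chr12:113578504-113578990), the first V gene of the array that can be used and one that is joined often in early B cells, had 276, 779, 347 and 625 bases. Neither segment had a peak on its own sequence in any library.

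**Figure D4:**
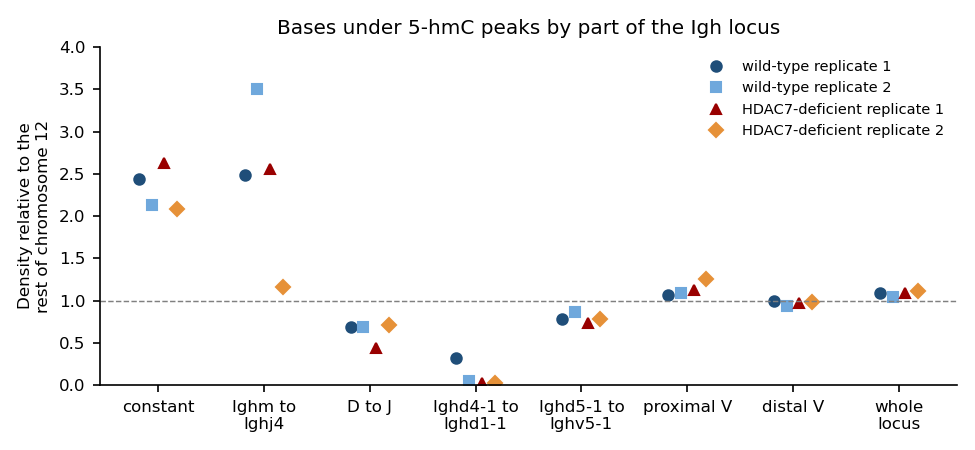
Relative density of bases under peaks (1 is the rest of chromosome 12, dashed line) for the parts and intervals of the Igh locus. Each symbol is 1 library. The constant region lies between 2.08 and 2.62, the stretch from Ighd4-1 to Ighd1-1 between 0.0229 and 0.320, and the 2 V parts between 0.936 and 1.25.

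In the V part, peaks were sparser on the segments than around them. The V segments (exons, intron and leader as annotated) held 33.2 and 37.1 bases under peaks per kb in wild-type cells, against 32.7 and 43.9 in HDAC7-deficient cells. The space farther than 2 kb from any V segment held 91.7, 99.8, 93.4 and 105, so the segments were lower in 4 of 4 libraries, by 60.7 ± 1.73 bases per kb (SD; p = 0.13 in a two-sided exact sign-flip permutation test, the smallest that 4 libraries allow). The 2 kb flanks, at 90.2, 107, 84.8 and 106, did not differ from that space in a common direction (difference -0.312 ± 6.69, p = 0.875, same exact test). V segments hold 5.74 CpG per kb and are unique in the genome at 64.6% of positions, against 4.98 CpG per kb and 60.1% over the V part.

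Between 20 and 27 of the 185 V segments had a peak on their own sequence in a library, and 5 had one in all 4, which were Ighv11-2, Ighv6-2, Ighv8-6, Ighv8-7 and Ighv8-10. These 5, 3 of them members of Ighv8, were picked out after their values had been seen. Around the 3′ end of the 183 V segments on the minus strand, where the recombination signal lies, the density was lowest in the 200 bp on the segment's side of the end, at 22.6 bases per kb (mean of 4 libraries). It was 178 bases per kb from 800 to 1000 bp beyond the end and 185 between 1600 and 1400 bp on the 5′ side. The share of unique words in the bins ranged from 60.7% to 75.8%, and the lowest bin, at 65.7%, had the most CpG (8.39 per kb).

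**Figure D5:**
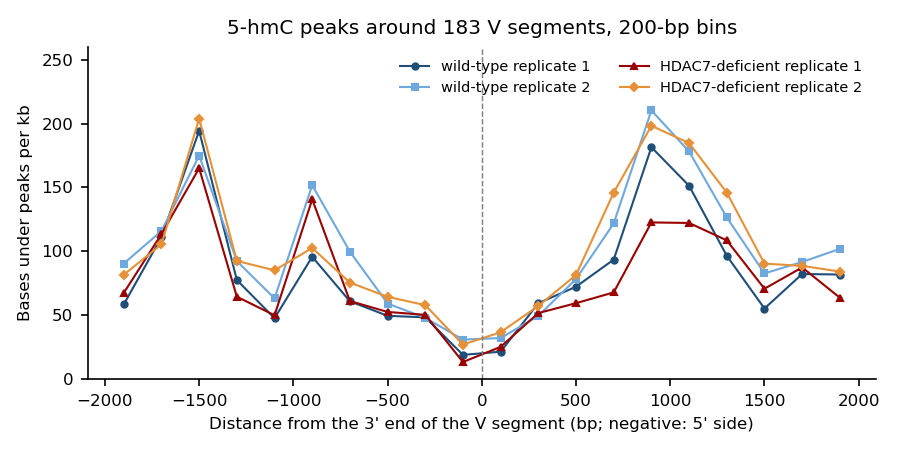
Bases under peaks per kb in 200-bp bins around the 3′ end of 183 V segments, by distance in bp (negative on the 5′ side, where the segment lies). Each line is 1 library. All 4 libraries dip at the segment, between 13.4 and 30.9 bases per kb in the 200 bp before its end, and all reach over 120 bases per kb between 800 and 1000 bp beyond it.

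The proximal V part, which is used early and includes families Ighv5 and Ighv2, had 93.6, 111, 98.6 and 122 bases under peaks per kb, and the distal V part, mostly Ighv1, had 88.0, 95.2, 85.0 and 95.3. Distal was lower than proximal in 4 of 4 libraries, by 15.3 ± 8.55 bases per kb (SD; p = 0.13, exact sign-flip permutation test, two-sided). The proximal part is the more unique of the parts, at 69.6% against 56.0% of positions. At unique positions alone the proximal part had 102, 120, 106 and 133 bases per kb and the distal part 103, 108, 100 and 111, so that wild-type replicate 1 no longer showed the difference.

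The V families differed in density near their members. Ighv10 (4 segments, at 1.603 ± 0.464 relative to the chromosome within 2 kb; SD, n = 4 libraries) and Ighv13 (2 segments, 1.30 ± 0.253) were the highest of the families with at least 2 members. Ighv4 (2 segments, 0.418 ± 0.357), Ighv14 (4 segments, 0.560 ± 0.234), Ighv12 (3 segments, 0.579 ± 0.0452) and Ighv2 (11 segments, 0.654 ± 0.146) were the lowest. The large families lay between, with Ighv1 (93 segments) at 0.964 ± 0.0397, Ighv5 (22 segments) at 1.16 ± 0.187 and Ighv8 (16 segments) at 0.743 ± 0.126. Neighbours in this order overlapped within their spread. Pseudogenes (0.997 ± 0.127, 70 segments) and V genes (0.930 ± 0.0279, 115 segments) did too.

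Of the V segments, 141 of 185 had a peak within 2 kb in all 4 libraries, and Ighv14-2, Ighv1-72 and Ighv8-13 had none in any. Ighv1-72 and Ighv8-13 lay in long intervals without peaks in wild-type replicate 1 and both HDAC7-deficient libraries. Only 21.9% to 22.1% of positions in these intervals start a unique 32-base word, against 60.1% over the V part. The median V segment had 341 and 396 bases in wild-type cells, against 312 and 402 in HDAC7-deficient cells, close to the median of autosomal genes up to 1 kb long, which was 343, 396, 343 and 380. Those with the most bases were Ighv5-15 (942, 1378, 602 and 1214 bases), the pseudogene Ighv1-29 (538, 1009, 780 and 1664), Ighv5-9 (864, 938, 1024 and 1149), the pseudogene Ighv5-19 (896, 961, 443 and 1572) and Ighv10-3 (976, 1454, 840 and 541). At Ighv5-9 both HDAC7-deficient libraries were above both wild-type libraries, at Ighv10-3 both were below, and at the other 3 the genotypes overlapped. Across the 185 segments the bases under peaks followed no sequence feature closely, with Spearman's rho of 0.19 with the share of unique words, 0.08 with GC content, 0.05 with CpG per kb and 0.09 with the soft-masked share. These correlations are across segments that share libraries and neighbouring windows, and they are given without a test.

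For the genotypes the totals of the locus were nearly equal. HDAC7-deficient libraries had 1451.5 ± 87.0 peaks and wild-type libraries 1412 ± 41.0 (SD, n = 2 each), a ratio of 1.03 ± 0.0685 (p = 0.667 in the two-sided exact permutation test over the libraries). The ratio of bases under peaks was 1.00 ± 0.112 (p = 1) and that of the relative density 1.03 ± 0.0311 (p = 0.33, the smallest that the exact test allows here). By part, the ratio of relative densities was 1.11 ± 0.0856 in the proximal V part (p = 0.33, both HDAC7-deficient libraries higher), 1.01 ± 0.0466 in the distal V part (p = 1) and 1.03 ± 0.193 in the constant region (p = 1), each by exact permutation. Without scaling the genotypes overlapped in the proximal V part, with 70189 and 83261 bases in wild-type against 73904 and 91223 in HDAC7-deficient libraries. The unscaled ratio was 1.08 (p = 0.667, same exact test). None of these differences passed a threshold of 0.05, which this number of libraries cannot reach. By shared bases, the pair of libraries numbered 1 from both genotypes had the highest overlap in the locus (Jaccard index 0.364), and the pair numbered 2 had the lowest of the 6 pairs (0.233). The index was 0.248 for the 2 wild-type and 0.278 for the 2 HDAC7-deficient libraries, and 0.295 and 0.244 for the remaining pairs.

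By segment, 25 of 217 members (11.5%) were higher, with both HDAC7-deficient counts of bases under peaks within 2 kb above both wild-type counts, and 40 (18.4%) were lower. Over all 51229 autosomal genes the shares were 12.2% and 16.6%, and over the 16412 autosomal genes up to 1 kb long, which are closer to the segments in size, 13.7% and 15.1%. Both counts of the locus were thus near the background. The windows overlap, and the 217 of them merge into 179 separate stretches. In the proximal V part 14 of 64 segments were higher (21.9%) and 7 lower (10.9%), and in the distal V part 9 of 121 were higher (7.44%) and 26 lower (21.5%), a difference between the V parts that was not tested. In family Ighv8 it was 0 higher and 4 lower of 16, in Ighv5 it was 5 higher and 1 lower of 22, and in Ighv1 it was 6 higher and 19 lower of 93.

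The widest gaps between genotypes among V segments show the size of these differences. Ighv3-3 (chr12:114196439-114196875) had 257 and 170 bases in wild-type cells, against 731 and 812 in HDAC7-deficient cells. Ighv6-3 had 254 and 221 against 469 and 845, Ighv5-12-4 had 241 and 171 against 411 and 424, and the pseudogene Ighv5-21 had 179 and 110 against 341 and 671. In the other direction, Ighv1-22 had 789 and 873 bases in wild-type against 373 and 0, the pseudogene Ighv1-79 (chr12:115888096-115888528) had 575 and 604 against 81 and 163, Ighv8-4 had 451 and 764 against 133 and 156, and Ighv1-78 had 398 and 1020 against 0 and 179. All 8 were chosen for the gap and carry no test. Each had between 0 and 6 peaks in a library.

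Merging the 4 lists gave 2582 regions in the locus, of which 333 (12.9%) had a peak in all 4 libraries and 49.9% in 1 library alone. Regions with a peak in the 2 HDAC7-deficient libraries alone, called gained, numbered 66 (2.56%), and regions with a peak in the 2 wild-type libraries alone, called lost, numbered 52 (2.01%). Over the whole genome the shares were 2.92% and 2.4%, so the locus was near the background in both directions. The constant region had 2 regions gained and 3 lost of 226, the D to J part 2 and 1 of 65, the proximal V part 19 and 12 of 746 and the distal V part 40 and 35 of 1485. The widest gained region, 569 bp at chr12:113874044-113874612, lay 1183 bp from Ighv5-18, and the widest lost region, 485 bp at chr12:113938160-113938644, lay 5777 bp from Ighv14-1.

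The Igh, Igk, Trb and Tra/Trd loci were each set against the rest of their own chromosome, and other antigen receptor loci were not measured. Taken whole, the Igh locus was denser than the other 3 loci in 4 of 4 libraries. Its value includes the constant region at 2.32 ± 0.255 (SD, n = 4). The other parts of Igh stood at 0.631 ± 0.129 (D to J), 1.13 ± 0.0842 (proximal V) and 0.972 ± 0.0264 (distal V). Whether Igh without its constant region exceeds the other loci was not tested. The relative density was 0.984 ± 0.0437 at the Igk locus, 0.970 ± 0.0404 at the Trb locus and 0.826 ± 0.0928 at the Tra/Trd locus (SD, n = 4). Igh exceeded them by 0.0991 ± 0.0573, 0.114 ± 0.0509 and 0.257 ± 0.0773 (each p = 0.13 and adjusted p = 0.13 over the 3 loci in the two-sided exact sign-flip permutation test, the smallest p possible with 4 libraries). Counted as peaks per kb, the difference was 0.0568 from Igk and 0.0305 from Trb (p = 0.25 and p = 0.5, same exact test), so the excess over Igk and Trb was smaller by number of peaks than by bases. The loci were divided by different chromosomes. The rest of chromosome 12 held 88.2, 101.8, 87.5 and 97.1 bases under peaks per kb, less than the autosomes at 94.1, 107.7, 93.0 and 106.2. The Igh locus itself held 95.9, 106.4, 95.6 and 107.6, close to the autosomes. How much of the excess comes from the choice of reference was not tested. The share of unique 32-base words was 61.3% at Igh, 57.8% at Igk, 71.6% at Trb and 45.4% at Tra/Trd. At Tra/Trd, HDAC7-deficient replicate 2 had the highest value (0.965 against 0.771 to 0.791) and the smallest difference from Igh.

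Of 12 genes for factors of Igh rearrangement, 3 (Rag1, Rag2 and Tcf3) had more bases under peaks within 2 kb in both HDAC7-deficient libraries, 1 (Yy1) had fewer and 8 (Ctcf, Dntt, Ebf1, Ezh2, Foxo1, Ikzf1, Pax5 and Rad21) overlapped, against the 12.2% and 16.6% of autosomal genes given above. Rag1 had 2603 and 2417 bases in wild-type cells, against 3054 and 3957 in HDAC7-deficient cells. Its neighbour Rag2, the other recombinase subunit, had 1765 and 1347 against 1809 and 1905, with a gap of 44 bases between the nearest libraries. Tcf3, which encodes the E2A proteins of early B cells, had 4197 and 3716 against 4547 and 4329. Yy1, a zinc finger protein that binds at the locus, had 3684 and 3149 against 3033 and 1637.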

How the data were processed

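Peaks of 5-hmC were taken from 4 hMeDIP-seq libraries, 2 per genotype. The deposited lists hold peak positions alone, called per library by the authors with MACS2 on reads that cutadapt 1.6 had trimmed under Trim Galore 0.4.2 and that were aligned to mm10 (per the labels with Bowtie2, per the methods with bwa; deepTools is also named). Per the methods, peaks that met a peak of the matching input library were discarded. Whether this was done before deposit is not stated, and the inputs were not analysed here. With no counts or heights the depth is unknown, and no counting interval can be given.

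Segments and their positions came from GENCODE M21 and sequence from the GRCm38 reference of RefSeq, the same build as mm10. Peak bases, peaks and regions (peaks of the 4 lists merged where they overlap by 1 bp) were counted per span, segment window (2 kb on each side) and library. A segment was called higher or lower where both HDAC7-deficient values lay beyond both wild-type values. Ratios carry a propagated SD and an exact permutation p over the 6 ways of assigning 2 genotypes (smallest 0.33), and comparisons within libraries an exact sign-flip p (smallest 0.13), both two-sided. Unique positions start a 32-base word that occurs once in the genome on either strand. Named segments were the constant genes, J and D segments, Ighv5-1, Ighv5-2, 12 rearrangement factors, the 5 V segments with the most bases and the 4 with the largest gap between genotypes in each direction. Segments and lists were chosen with earlier results of these data known. Alternatives were peak width, merging, midpoint overlap, window, scaling, V boundary, replicate block and leaving out each library. Python 3.11.15, NumPy 2.4.6, pandas 2.3.3, SciPy 1.17.1, numba 0.67.0 and matplotlib 3.10.9 were used, and the functions were tested on simulated data. One shared stretch is not reported here.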

Additional observations from a re-analysis of the deposited data

How the results depend on the processing

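The lists hold positions without heights, 2 libraries per genotype cannot reach p below 0.33, and repeated sequence limits where peaks can be placed, so a genotype difference of the size of the replicate spread was not detectable. Of the recomputed values 100 kept their direction and, where tested, their side of the threshold, though not always their size, 22 counts moved by over 1.5 times and 12 ratios crossed 1. Among the 100, the ratio from Ighd4-1 to Ighd1-1 was between 0.0787 and 0.507 with each library left out, against 0.136, and the excess of Igh over Trb was 0.0305 by peaks per kb, against 0.114. With peaks at least 200 bp wide the HDAC7-deficient to wild-type ratio was 0.997 for locus peaks and 0.985 for peak bases, and without scaling it was 0.984 for the distal V part and 0.998 for the constant region. Scaled to all autosomes, the distal V ratio was 0.996. Leaving out each library in turn gave 0.984 to 1.07 for locus peaks, 0.945 to 1.06 for peak bases, 0.979 to 1.04 for the distal V part, 0.638 to 1.03 for the D to J part and 0.910 to 1.15 for the constant region. With 3 libraries fewer values must separate, and the counts of segments higher went from 25 to between 49 and 64 and lower from 40 to between 63 and 82, gained regions from 66 to between 142 and 409 and lost regions from 52 to between 131 and 491. On the segment alone 6 were higher and 4 lower, by number of peaks 15 and 15, and with peaks at least 200 bp wide 14 and 22. The cause was not tested.

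Replicate numbers are shared by the genotypes, but the labels do not say that a number marks a batch, and with 2 pairs the numbers were not taken as a pairing. Deviations of same-numbered libraries correlated at 0.101 across the 217 segments and 0.599 across 51229 autosomal genes. With a replicate block the ratio was 1.03 for locus peaks, 1.00 for peak bases, 1.03 for relative density, 1.01, 1.10, 0.811 and 1.02 for the distal V, proximal V, D to J and constant parts, and no call changed. With the V parts divided after Ighv5-19, chosen after seeing the data, the ratio was 1.02 for distal and 1.19 for proximal V, and distal less proximal was -12.3 bases per kb (p = 0.25, exact permutation test).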
